A study of Bos taurus with 24 samples.

Results

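The comparison described here sets Holstein against Angus dermal fibroblasts, which make the collagen-rich matrix under the epidermis, after 2 h with lipopolysaccharide (LPS), the Gram-negative cell wall component that starts an innate immune response. It rests on the sample labels alone, which place 4 Holstein and 4 Angus cultures at 2 h, so that 8 of the 24 samples of the series enter it. Each sample came from a separate heifer of a dairy (Holstein) or a beef (Angus) breed, all of the same age. Cells were grown from a biopsy of shoulder skin, frozen at the third passage, revived and given LPS at 100 ng/ml, and the RNA of each sample came from a pair of wells lysed together. The same 8 cultures were also sampled at 0 h, when LPS had not been added, and at 8 h. Those hours serve below only to show where the 2 h breed difference departs from the difference at another hour.

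Fibroblasts sense LPS through TLR4 with its partners LY96 (MD-2) and CD14. The receptor signals through NF-kB and the MAP kinases, and the first transcripts to appear are immediate-early genes, which need no new protein and encode transcription factors and the inhibitors that shut the signal off. Cytokine and chemokine transcripts follow, so that an early sample catches the first wave of the response.

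Total counts at 2 h ranged from 61457138 to 97786777 per sample with no breed difference resolved beyond the spread of the animals (two-sided exact permutation P = 0.4, where the smallest P that 4 against 4 can give is 0.0286). Levels are given as CPM, counts relative to library size after TMM scaling, and 3 counts, the smallest number taken as measurable, stood for 0.031 to 0.049 CPM. One library stood apart. In Angus animal 3, 96.54% of reads matched the genome against 93.99% to 95.11% in the other 7, the 10 largest rows took 23.2% of the counts, and 66.9 bases of coverage stood behind each count of COL1A1 against 113.2 to 119.0 elsewhere. Among 9617 rows with a symbol that had coverage in every sample, 20 showed such a shift in counting (bases per count outside 0.8 to 1.25 times the median of the others), and none of them was past the threshold used below. Angus animal 3 was kept, and the main results that rest on it are given with and without it.

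The labelled cell type was checked against marker genes. All 12 fibroblast markers were detected, from COL1A1 to FAP, and their summed level was 67656 to 83134 CPM in Holstein, beside 42907 to 85681 CPM in Angus. Several defining markers of other cells were absent. KRT1 (keratinocyte), CLDN5 (endothelial cell), TYROBP (leukocyte), MYOD1 and MYOG (skeletal muscle) had no count in any of the 8 samples. Of the 10 leukocyte markers 9 stayed under 1 CPM in all 8 samples, and the list summed to 4.98 to 5.56 CPM in Holstein, beside 4.93 to 6.0 CPM in Angus. Smooth muscle and pericyte markers, some of which fibroblasts in culture also express, were present, with 3 of 8 tested and a sum of 446 to 582 CPM in Holstein, beside 353 to 518 CPM in Angus. MYH11, a smooth muscle myosin, was at 26.1 to 39.3 CPM in Holstein, beside 18.9 to 22.2 CPM in Angus (log2 fold change 0.64 ± 0.14, FDR = 0.000313), under the 2-fold limit. The part of such cells in the results below was not tested. The adipocyte markers summed to 9.18 to 14.9 CPM in Holstein, beside 12 to 20.1 CPM in Angus. Keratinocyte and endothelial markers summed to small values that did not overlap between breeds. The 9 keratinocyte markers came to 12.4, 2.23, 2.35 and 2.07 CPM in Holstein animals 1 to 4 and to 1.39 to 1.99 CPM in Angus, and KRT5 reached 7.97 CPM in Holstein animal 1. The 8 endothelial markers came to 3.7 to 5.28 CPM in Holstein, beside 2.48 to 3.27 CPM in Angus, but single members went both ways. VWF was higher in Holstein, at 1.65 to 2.41 CPM, beside 0.486 to 1.51 CPM in Angus. PECAM1 was lower without overlap, at 0.0408 to 0.188 CPM in Holstein, beside 0.199 to 0.865 CPM in Angus. So was CDH5, at 0.0132 to 0.0289 CPM in Holstein, which is under 3 counts, beside 0.0352 to 0.237 CPM in Angus. In bulk RNA, fewer cells of a type and less RNA per cell cannot be told apart.

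Of 20184 rows tested, 898 (4.45%) were past the threshold, which was an FDR under 0.05 by the edgeR likelihood-ratio test, a fold change of at least 2 and an average above 1 CPM. Among the 12931 tested rows that carried a gene symbol, 612 (4.73%) were past it. Of these, 322 (2.49%) were higher in Holstein and 290 (2.24%) were lower. FDR alone would have called 2871 rows with a symbol (22.2%). The differences were mostly moderate, since 542 of the 612 lay between 2-fold and 4-fold, and 70 were 4-fold or more, 38 of them higher in Holstein and 32 lower. Every Holstein sample lay on the same side of every Angus sample for 470 of the 612 rows, beside 3362 of the 12931 tested rows (26.0%). Of the 142 called rows with overlapping groups, 99 separated when Angus animal 3 was set aside. Without that animal 898 rows with a symbol were past the threshold, 527 higher and 371 lower. Of the 599 original calls that remained testable, 574 were still past it, in a fit that shares all its samples with the first. The same comparison called 540 of 13055 rows with a symbol at 0 h (4.14%) and 452 of 13099 at 8 h (3.45%).

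**Figure D1:**
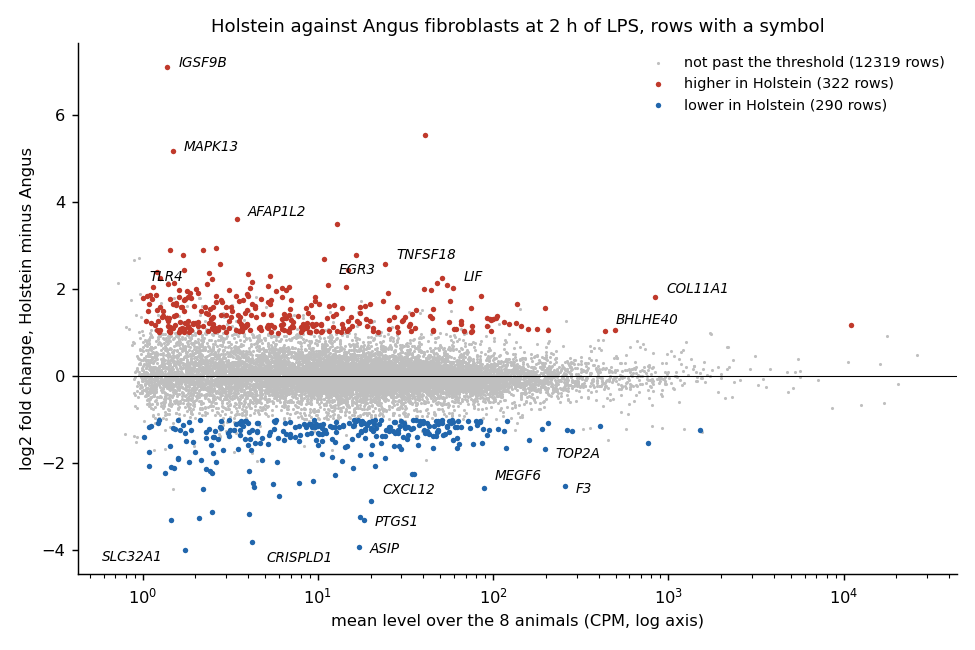
Each point is 1 row with a gene symbol, with its mean level over the 8 animals at 2 h (CPM, log axis) against the log2 fold change of Holstein over Angus. The 322 rows higher in Holstein (red) and the 290 lower (blue) spread over the range of levels, and the rows of IGSF9B, MAPK13 and SLC32A1, at both ends of the fold changes, had mean levels between 1 and 2 CPM.

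The genes with the greatest excess in Holstein, among those whose groups did not overlap, were mostly genes that Angus cells barely expressed. IGSF9B, an immunoglobulin superfamily adhesion protein (chromosome 29, 33679906 to 33702558 in the bovine build UMD v3.1 used by the authors, as are all positions below), was at 2.85, 4.86, 1.44 and 1.88 CPM in Holstein animals 1 to 4 and at 0, 0.025, 0.0469 and 0 CPM in Angus. The Angus values stood for 0 to 4 counts per library, so the fitted log2 fold change of 7.11 ± 0.75 (SE, FDR = 4.77e-22) depends on the prior count and is not a bound. MAPK13, the delta isoform of the p38 stress kinase (chromosome 23, 10036687 to 10045047), was at 3.16, 2.72, 1.94 and 3.83 CPM in Holstein, beside 0.0157, 0.113, 0.082 and 0.0927 CPM in the Angus cultures. No Angus culture exceeded 0.113 CPM, and the log2 fold change was 5.18 ± 0.4 (FDR = 9.61e-37). With Angus levels this low, MAPK13 could be tested only if all 4 Holstein cultures had at least 1 CPM. That all 4 carried the transcript was thus set by the filter on low levels and is not a separate finding. AFAP1L2, an adaptor of Src family kinases, had a log2 fold change of 3.6 ± 0.7 (FDR = 0.000107), and PIK3IP1, an inhibitor of phosphoinositide 3-kinase, one of 2.95 ± 0.6 (FDR = 0.000169).

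Several of the other leading Holstein genes encode cell surface and adhesion proteins. TNFSF18, the ligand of the co-stimulatory receptor GITR, was at 34.8, 19.0, 64.6 and 48.0 CPM in Holstein against 5.07, 9.0, 6.96 and 6.91 CPM in Angus (log2 fold change 2.57 ± 0.34, FDR = 3.11e-10). It was the most abundant of the 15 leading genes, and every Holstein animal lay well above every Angus animal. Before LPS, at 0 h, the log2 fold change of TNFSF18 was 2.71. DSC2, a desmosomal cadherin, was at 37.7, 20.1, 22.8 and 34.3 CPM in Holstein, beside 1.71, 6.0, 8.79 and 0.268 CPM in the Angus cultures, a log2 fold change of 2.78 ± 0.75 (FDR = 0.00616). Its neighbour on chromosome 24, DSC3, was at 134, 35.0, 55.3 and 89.0 CPM in Holstein, beside 8.89, 20.3, 39.6 and 1.79 CPM in the Angus cultures (2.15 ± 0.73, FDR = 0.0305), with Angus animal 3 above Holstein animal 2. Neither the F test (FDR = 0.0893) nor DESeq2 (FDR = 0.0509) called DSC3. Its call also ended without Angus animal 1 or 2 or Holstein animal 1 or 4. Keratinocytes also express desmocollins, and the small keratinocyte signal given above was highest in Holstein animal 1, in which DSC3 was highest as well. The part of that signal in the desmocollin values was not tested. The remaining leading genes with the Holstein excess were ISLR2, GDAP1L1, HEYL, USP43, RXFP4, C28H10orf10, MEST, GALNTL2 and EPOR, the erythropoietin receptor, with log2 fold changes from 2.26 to 2.9. The spans of HEYL, C28H10orf10 and MEST overlap another gene, so their counts may be shared. Of the 15 leading genes, IGSF9B, MAPK13, AFAP1L2, ISLR2, GDAP1L1, RXFP4, C28H10orf10 and EPOR passed the filter on low levels through the Holstein cultures alone. With any 1 Holstein animal left out they could not be tested.

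Of the genes with the greatest deficit in Holstein, several act outside the cell or make signals that leave it. SLC32A1, a vesicular transporter of GABA and glycine, came first, at 0.119, 0.145, 0.211 and 0.34 CPM in Holstein, beside 6.86, 2.25, 2.12 and 1.84 CPM in the Angus cultures (log2 fold change -3.99 ± 0.52, FDR = 4.34e-10). PTGS1, the constitutive cyclooxygenase of prostaglandin synthesis (chromosome 11, 93219287 to 93245048), was at 3.3, 1.94, 4.76 and 3.42 CPM in Holstein, beside 37.0, 12.4, 29.0 and 54.7 CPM in the Angus cultures. That is a log2 fold change of -3.31 ± 0.42 (FDR = 1.37e-10), with no overlap. F3, or tissue factor, which starts blood clotting (chromosome 3, 49110156 to 49121034), was the most abundant of the 15 leading genes of this direction. It was at 97.3, 94.6, 47.9 and 67.5 CPM in Holstein, beside 587, 334, 411 and 419 CPM in the Angus cultures (-2.51 ± 0.26, FDR = 1.72e-17). CXCL12, a chemokine that fibroblasts make constitutively, was at 4.8, 1.55, 5.46 and 7.5 CPM in Holstein, beside 42.6, 13.6, 13.0 and 72.8 CPM in the Angus cultures (-2.88 ± 0.61, FDR = 0.000293). Before LPS, at 0 h, the log2 fold changes of PTGS1, F3 and CXCL12 were -3.08, -3.17 and -2.5, and SLC32A1 was not tested.

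Signalling genes were also among those lower in Holstein. PDE10A, a phosphodiesterase that breaks cyclic AMP down, was at 0.853 to 2.15 CPM in Holstein, beside 4.83 to 17.8 CPM in Angus (-2.76 ± 0.44, FDR = 5.5e-07). ASIP, the agouti pigment signal, had a log2 fold change of -3.93 ± 0.26 (FDR = 1.82e-38) and was at 22.5 CPM in Angus animal 1 and 35.1 to 36.0 CPM in the other 3. Others were CRISPLD1, FBP1 (fructose-bisphosphatase), KCNG1, ANKRD24, NLGN4Y, AJAP1, MEGF6 and COLEC12, from -3.8 to -2.49. SLC32A1, FBP1, KCNG1, NLGN4Y and AJAP1 passed the filter on low levels through the Angus cultures alone. With any 1 Angus animal left out, Angus animal 3 included, they fell under it and could not be tested. The spans of KCNG1, MEGF6 and COLEC12 overlap another gene.

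The called genes were then read by function, with 50 lists of pathway and family members. Members past the threshold made up 10 of 31 immediate-early transcription factors, all higher in Holstein, and 50 of 110 cell-cycle genes, all lower. In both lists the share was far above the 2.49% and 2.24% of all rows with a symbol. Most other lists held a few called genes each.

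**Figure D2:**
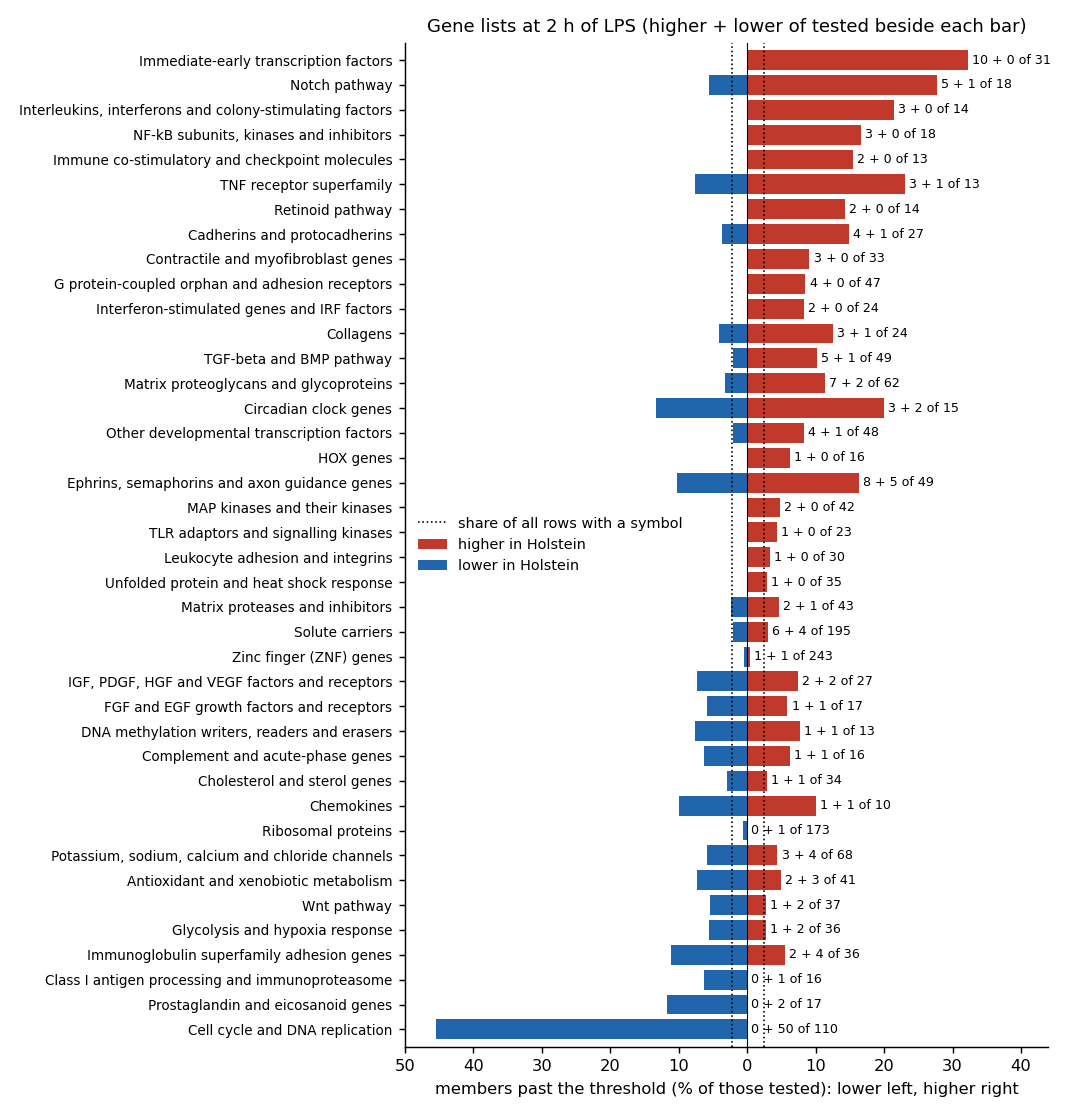
For each list with at least 10 tested members and a called member, the bar to the right gives the share of tested members higher in Holstein at 2 h and the bar to the left the share lower (% of members tested), with the dotted lines at the shares over all rows with a symbol. Among the lists drawn, immediate-early genes reach furthest to the right (10 of 31) and cell-cycle genes furthest to the left (50 of 110).

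Among the sensors of microbial products, 9 of 24 listed genes were expressed highly enough to test, with TLR4 and NOD1 higher and TLR2 lower in Holstein. TLR4, the LPS receptor (chromosome 8, 108828899 to 108839911), was at 3.27, 4.19, 2.46 and 3.07 CPM in Holstein, beside 0.345, 1.16, 1.25 and 0.443 CPM in the Angus cultures (log2 fold change 2.01 ± 0.41, FDR = 9.66e-05). NOD1, a cytosolic sensor of peptidoglycan, was at 1.18 to 1.95 CPM in Holstein, beside 0.426 to 0.834 CPM in Angus (1.27 ± 0.28, FDR = 0.000188). It passed the filter on low levels through the Holstein cultures alone, and with any 1 Holstein animal left out it could not be tested. TLR2, the receptor for bacterial lipoproteins, went the other way, at 0.529 to 1.29 CPM in Holstein, beside 1.99 to 3.03 CPM in Angus (-1.49 ± 0.28, FDR = 1.2e-05). The partners of TLR4 gave no such contrast. LY96 was at 10.4 to 13.0 CPM in Holstein, beside 11.7 to 14.5 CPM in Angus (-0.13 ± 0.14, FDR = 0.556), and CD14 did not pass the filter, at 0.149 to 0.421 CPM in Holstein, beside 0.0618 to 0.633 CPM in Angus. Of 23 TLR adaptors and kinases 1 was past the threshold, TRAF1, a survival adaptor that NF-kB induces (1.26 ± 0.28, FDR = 0.000314). Before LPS, at 0 h, the log2 fold changes were 1.59 for TLR4 (FDR = 0.0209), 0.19 for NOD1 (FDR = 0.628) and -1.78 for TLR2 (FDR = 4.43e-06).

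NF-kB genes leaned towards Holstein. Of 18 tested subunits, kinases and inhibitors 3 were higher, 17 had a positive log2 fold change and the median was 0.44, beside -0.022 over all rows with a symbol. BCL3, a nuclear co-regulator of NF-kB, was at 37.4, 40.6, 43.0 and 66.8 CPM in Holstein, beside 24.2, 15.3, 29.0 and 13.8 CPM in the Angus cultures (1.19 ± 0.28, FDR = 0.000597). NFKBID, a nuclear inhibitor of the same family, had a log2 fold change of 1.13 ± 0.27 (FDR = 0.000682). NFKBIA, which encodes the inhibitor that ends an NF-kB pulse, was at 145, 234, 132 and 248 CPM in Holstein, beside 72.5, 53.3, 156 and 41.7 CPM in the Angus cultures. Angus animal 3 lay inside the Holstein range and the other 3 below it, and the log2 fold change was 1.23 ± 0.41 (FDR = 0.0196) with that animal and 1.77 (FDR = 1e-07) without it. The F test (FDR = 0.0675) and DESeq2 (FDR = 0.0615) did not call NFKBIA. Leaving out Angus animal 1, 2 or 4 or Holstein animal 2 or 4 also ended the call, with log2 fold changes down to 1.01. RELB, a subunit, was at 30.5 to 46.2 CPM in Holstein, beside 16.7 to 43.6 CPM in Angus (0.53 ± 0.3, FDR = 0.206), and Angus animal 3 was again the highest of its breed. Without Angus animal 3, 7 of the 18 were past the threshold.

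In LIF and TNF the same animal was the highest of its breed. LIF, a cytokine of the interleukin 6 family (chromosome 17, 71413855 to 71418166), was at 77.4, 110, 69.0 and 120 CPM in Holstein, beside 15, 19.7, 53.8 and 4.49 CPM in the Angus cultures. The groups did not overlap, and the log2 fold change was 2.02 ± 0.58 (FDR = 0.00825), or 2.85 without Angus animal 3. TNF was at 1.6, 4.83, 1.29 and 4.23 CPM in Holstein, beside 0.11, 0.188, 1.37 and 0.0515 CPM in the Angus cultures (2.79 ± 0.88, FDR = 0.0205), with overlap through Angus animal 3 only, and differed by 4.68 (FDR = 1.7e-09) without that animal. The F test called neither LIF (FDR = 0.0523) nor TNF (FDR = 0.0636), and the TNF call ended when Angus animal 1, 2 or 4 or Holstein animal 2 or 4 was left out, with log2 fold changes down to 2.42. The span of TNF (chromosome 23, 27533901 to 27536674) overlaps an unnamed gene. IL34, a ligand of the CSF1 receptor, was evenly higher, at 8.59 to 11.6 CPM in Holstein, beside 3.76 to 5.3 CPM in Angus (1.13 ± 0.18, FDR = 6e-08). IL11 was also past the threshold (1.02 ± 0.31, FDR = 0.00991), with overlapping groups and a log2 fold change of 0.98 without Angus animal 3, so that 3 of 14 interleukins, interferons and colony-stimulating factors were higher and none was lower.

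For several well-known LPS targets, IL8, IL6, CCL2, CCL5 and CX3CL1, the 2 h breed difference was not resolved over the 8 samples. IL8 was at 20.4, 76.8, 30.3 and 50.4 CPM in Holstein, beside 33.8, 13.2, 91.8 and 13.1 CPM in the Angus cultures, a log2 fold change of 0.23 ± 0.64 (FDR = 0.841). IL6 was at 8.8, 19.7, 10.3 and 30.1 CPM in Holstein, beside 40.7, 18.4, 194 and 7.14 CPM in the Angus cultures (-1.92 ± 0.83, FDR = 0.0997, or -0.35, FDR = 0.707, without Angus animal 3), and its symbol stands on more than 1 row. In both genes Angus animal 3 had the highest value of all 8 samples. CCL2 (0.43 ± 0.49), CCL5 (1.72 ± 0.77) and CX3CL1 (1.82 ± 0.78) missed the threshold with FDR values of 0.585, 0.108 and 0.0936. Without Angus animal 3 all 3 were past it, at 1.1, 2.67 and 2.77. Of 10 tested chemokines, CCL26, an eotaxin, was higher (1.46 ± 0.47, FDR = 0.0178) and CXCL12 was lower, and without Angus animal 3 the count was 5 higher and 1 lower. The F test did not call CCL26 (FDR = 0.0601), and its call ended without Angus animal 4 or Holstein animal 1 or 4. CCL20 did not pass the filter, at 0.546 to 3.92 CPM in Holstein, beside 0 to 6.09 CPM in Angus. CXCR4, the receptor of CXCL12, was at 0.625 to 4.18 CPM in Holstein, beside 2.59 to 6.56 CPM in Angus (-1.04 ± 0.53, FDR = 0.162). IRF1, a transcription factor of the interferon system, was at 41.4, 91.6, 41.5 and 84.2 CPM in Holstein, beside 23.3, 17.9, 51.7 and 8.95 CPM in the Angus cultures (1.34 ± 0.5, FDR = 0.041, or 1.96, FDR = 5.67e-05, without Angus animal 3). Its groups overlapped through Angus animal 3, its span overlaps another gene, and neither the F test (FDR = 0.0955) nor DESeq2 (FDR = 0.0844) called it. The IRF1 call also ended without Angus animal 1, 2 or 4 or Holstein animal 2 or 4, with log2 fold changes down to 1.06. IRF1 and IRF5 were the called members among 24 interferon-stimulated genes and IRF factors, whose median was -0.03. The F test called 0 of the 24, while the likelihood-ratio test gave 6 with an unadjusted P under 0.05. None of 22 cytokine receptors was past the threshold by the edgeR likelihood-ratio test or by its quasi-likelihood F test, and 6 had an unadjusted P under 0.05 in each.

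Immediate-early genes formed the clearest group on the Holstein side. EGR3, a zinc finger factor (chromosome 8, 70502499 to 70506409), was at 19.5, 21.2, 11.3 and 22.3 CPM in Holstein, beside 3.55, 4.79, 5.75 and 3.33 CPM in the Angus cultures (log2 fold change 2.09 ± 0.26, FDR = 8.25e-12). CSRNP1, a nuclear protein of the early response, was at 38.2, 39.5, 28.7 and 38.8 CPM in Holstein, beside 7.77, 14.0, 15.6 and 6.57 CPM in the Angus cultures (1.73 ± 0.28, FDR = 2.02e-07). FOSB, an AP-1 subunit, was at 106, 69.9, 69.0 and 105 CPM in Holstein, beside 22.7, 33.8, 31.4 and 18.3 CPM in the Angus cultures (1.72 ± 0.24, FDR = 6.47e-10). In all 3 genes the lowest Holstein culture lay well above the highest Angus culture. IER2, a short-lived nuclear regulator (chromosome 7, 13543659 to 13545435), was at 38.3, 40.9, 30.3 and 47.1 CPM in Holstein, beside 16.8, 13.6, 16.7 and 13.5 CPM in the Angus cultures (1.37 ± 0.16, FDR = 2.97e-14). JUNB (1.34), HES1 (1.32), ATF3 (1.26), IER3 (1.16), KLF10 (1.15) and BHLHE40 (1.03) completed the 10 called genes, and only ATF3 had overlapping groups.

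The whole list moved less than these 10. Of 31 tested members 21 were not past the threshold, 11 had a negative log2 fold change, and the median was 0.34. The summed level of the list was 1878 to 2402 CPM in Holstein, beside 1180 to 1579 CPM in Angus, without overlap. Sums of several other lists did not overlap either, and 26.0% of all tested rows with a symbol had groups without overlap. FOS itself was at 8.77 to 20.1 CPM in Holstein, beside 7.54 to 15.8 CPM in Angus (0.34 ± 0.3, FDR = 0.468). EGR1 was at 26.4, 33.9, 16.7 and 27.1 CPM in Holstein, beside 14.6, 13.2, 36.5 and 9.83 CPM in the Angus cultures, where Angus animal 3 was again the highest of the 8 samples (0.49 ± 0.4, FDR = 0.417; without it 1.06, FDR = 0.000305). Without that animal 14 members were past the threshold, all of them higher.

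**Figure D3:**
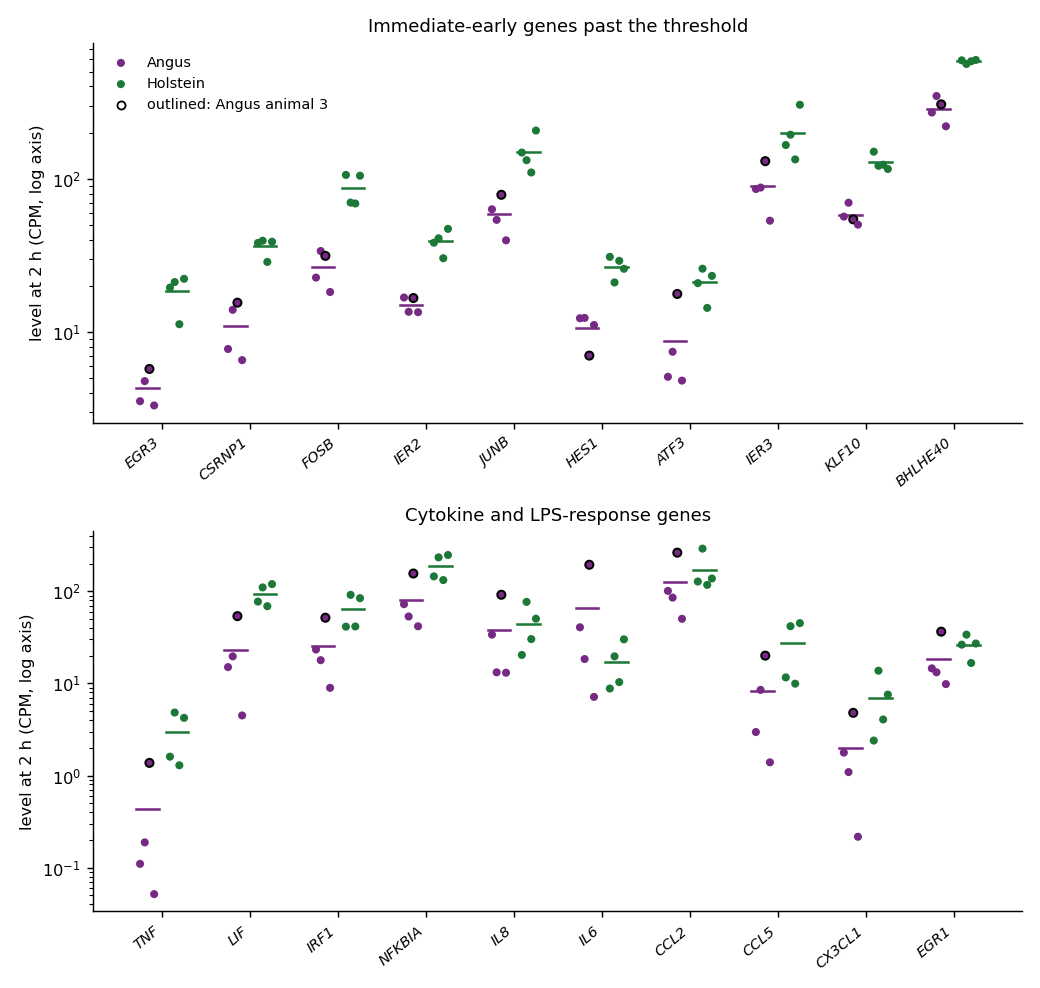
Levels at 2 h (CPM, log axis) of each animal, with a line at the group mean, for the 10 called immediate-early genes (upper panel) and for 10 cytokine and LPS-response genes (lower panel), and with Angus animal 3 outlined. In the upper panel 9 of 10 genes show no overlap, while in the lower panel Angus animal 3 is the highest of its breed for all 10 genes and lies inside or above the Holstein range for all but LIF.

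The MAP kinases that act upstream of these factors had 2 of 42 tested genes past the threshold, a share like that of all rows, and 14 with an unadjusted P under 0.05, 11 of them higher. Both called genes encode p38 isoforms and were higher in Holstein. MAPK13 is given above, and MAPK12, the gamma isoform, was at 2.73, 2.34, 4.15 and 5.83 CPM in Holstein, beside 1.6, 2.27, 1.69 and 1.3 CPM in the Angus cultures (1.14 ± 0.33, FDR = 0.00601). None of 18 MAP kinase phosphatases and Sprouty inhibitors was past the threshold by the edgeR likelihood-ratio test or the F test, and 6 had an unadjusted P under 0.05 in each. The nearest were DUSP6 (0.91 ± 0.22, FDR = 0.000682) and DUSP5 (0.76 ± 0.22, FDR = 0.00694), phosphatases that act on ERK, both without overlap and below the 2-fold limit.

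Whether a breed difference belonged to the 2 h time point was asked with the interaction of breed and hour. Against 0 h, 28 of 12950 rows with a symbol were past the threshold (0.216%), and 76 (0.587%) when each animal was compared with itself in the same test. Against 8 h, 37 of 12969 were past it (0.285%), and 131 (1.01%) with the animal block. The quasi-likelihood F test without the block called 10 and 17. Immediate-early genes supplied 6 of the 28 calls against 0 h and 5 of the 37 against 8 h, all with a larger Holstein excess at 2 h. With the animal block they were 10 against 0 h, and 7 higher and 1 lower against 8 h.

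IER2 shows the pattern in its simplest form. Its mean was 13.0 ± 1.22 CPM (SD, n = 4) in Holstein and 18.6 ± 5.92 CPM in Angus at 0 h, 39.2 ± 6.97 and 15.1 ± 1.86 CPM at 2 h, and 13.3 ± 1.84 and 16.7 ± 1.95 CPM at 8 h. The 2 h breed difference exceeded that at 0 h by 1.9 ± 0.28 on the log2 scale (FDR = 7.89e-08) and that at 8 h by 1.7 ± 0.21 (FDR = 2.23e-11). CSRNP1 behaved alike, with 9.52 ± 1.02 CPM in Holstein and 9.11 ± 1.07 CPM in Angus at 0 h and 36.3 ± 5.09 and 11 ± 4.46 CPM at 2 h (difference 1.68 ± 0.33 against 0 h, FDR = 0.000373, and 1.58 ± 0.33 against 8 h, FDR = 0.00125). In both genes the Angus mean stayed close to its 0 h level while the Holstein mean stood well above its own.

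EGR3 was almost silent at 0 h in both breeds, at 0.26 ± 0.186 CPM in Holstein and 0.213 ± 0.0317 CPM in Angus, and the difference against 0 h was 1.9 ± 0.48 (FDR = 0.0236). FOSB was likewise below 1 CPM on average at 0 h, and its larger 2 h excess missed the threshold against 0 h (0.94 ± 0.38, FDR = 0.7). DUSP6 was lower in Holstein at 0 h, at 3.39 ± 0.931 against 8.41 ± 4.43 CPM, and higher at 2 h, at 25.2 ± 7.39 against 13.4 ± 1.74 CPM (2.24 ± 0.47, FDR = 0.00174). DUSP5 had the same turn of sign in its means (2.3 ± 0.53, FDR = 0.00708), as had CTSW, cathepsin W (2.6 ± 0.62, FDR = 0.0111), whose 2 h difference alone was 0.61 (FDR = 0.163) with overlapping groups. By the F test the differences of DUSP5 and CTSW against 0 h missed the threshold without the block (FDR = 0.15 and 0.189) and with it (0.0684 and 0.102). Those of EGR3 (0.249), CSRNP1 (0.0578), DUSP6 (0.0884) and BBC3 (0.164) missed it in the F test without the block and passed with the block. BBC3, which encodes the pro-apoptotic protein PUMA, differed in another way. It was at 5.2 ± 1.08 CPM in Holstein and 3.74 ± 0.906 CPM in Angus at 0 h and at 4.34 ± 0.754 and 1.33 ± 0.294 CPM at 2 h. At 8 h the means were 2.97 ± 0.526 and 3.07 ± 0.453 CPM, so that Angus was lowest at 2 h and the breeds were level again at 8 h (difference 1.25 ± 0.32 against 0 h, FDR = 0.025, and 1.76 ± 0.29 against 8 h, FDR = 1.97e-06).

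On the Angus side, COL27A1, a fibrillar collagen gene (chromosome 8, 105095607 to 105203080), had means of 6.61 ± 1.45 CPM (Holstein) and 5.83 ± 1.11 CPM (Angus) at 0 h. At 2 h it was at 5.7, 6.41, 6.49 and 8.43 CPM in Holstein, beside 17.7, 12.9, 11.5 and 16.1 CPM in the Angus cultures. By 8 h the means were 12.3 ± 1.8 and 11.5 ± 2.17 CPM. The difference was -1.27 ± 0.28 against 0 h (FDR = 0.00357) and -1.2 ± 0.26 against 8 h (FDR = 0.00186). MTSS1, an actin-binding protein of the cell membrane, had a Holstein mean of 1.24 CPM at 0 h, 0.845 CPM at 2 h and 2.25 CPM at 8 h, beside 1.89, 3.73 and 3.44 CPM in Angus (-1.51 ± 0.37 against 0 h, FDR = 0.0136). SV2C, a synaptic vesicle glycoprotein, and SYNJ2, a phosphoinositide phosphatase, had Angus means above Holstein at 2 h and below Holstein at 8 h (-2.16 ± 0.37 and -1.53 ± 0.25 against 8 h, FDR = 8.03e-06 and 3.19e-06). ZNF280C, a zinc finger gene, was at 2.93 ± 0.285 CPM in Holstein and 3.16 ± 0.196 CPM in Angus at 0 h and at 0.702 ± 0.128 CPM in Holstein and 2.15 ± 0.347 CPM in Angus at 2 h (-1.48 ± 0.24, FDR = 1.33e-06). By the F test without the block the differences of COL27A1 and MTSS1 against 0 h missed the threshold (FDR = 0.0848 and 0.157), and with the block they passed. The spans of COL27A1 and MTSS1 overlap another gene. RASL11B and N6AMT1 also had negative differences against 0 h, of -1.62 and -1.42. So did MYCL1, at -1.33, with a Holstein excess of 1.85 on the log2 scale at 0 h and 0.51 at 2 h.

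**Figure D4:**
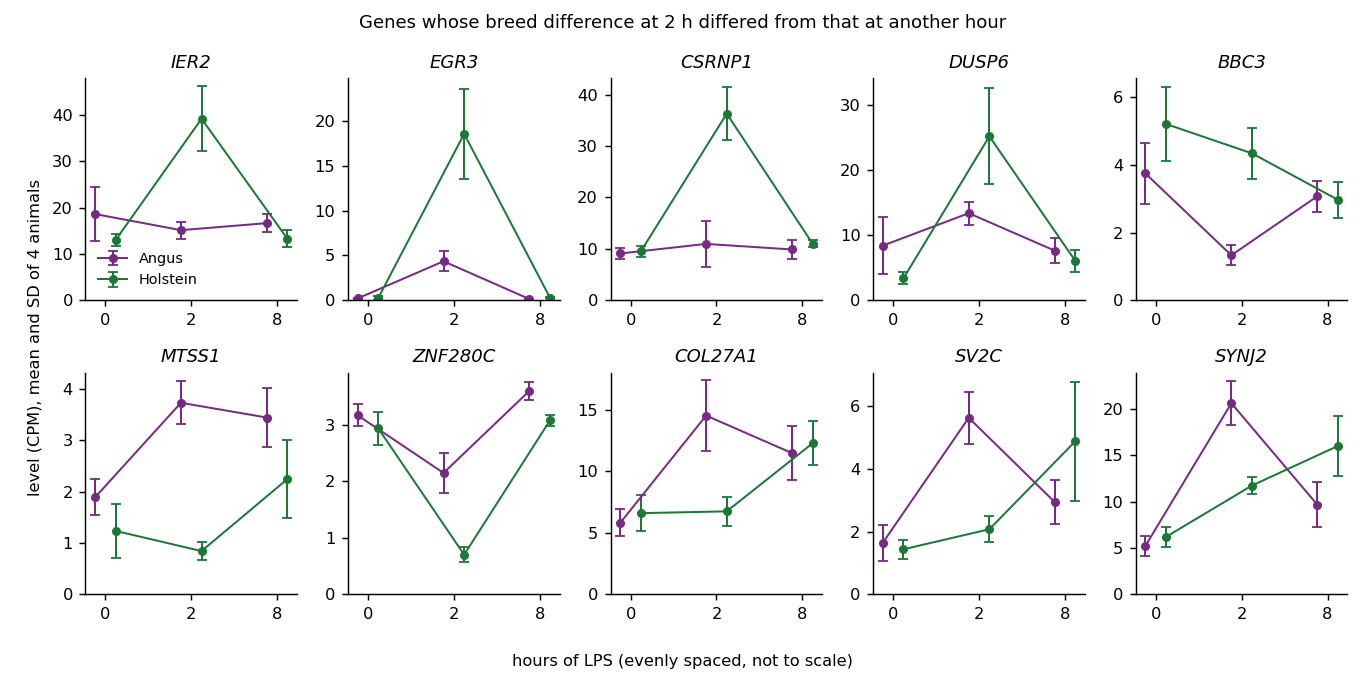
Mean level (CPM) and SD of 4 animals per breed at 0, 2 and 8 h of LPS for 10 genes whose breed difference at 2 h differed from that at another hour. The upper genes (IER2, EGR3, CSRNP1, DUSP6, BBC3) have a Holstein excess at 2 h, and the lower genes (MTSS1, ZNF280C, COL27A1, SV2C, SYNJ2) an Angus excess.

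For inflammatory genes the call on the interaction depended on whether each animal was compared with itself. NFKBIA had a breed difference that was 1.37 ± 0.48 larger at 2 h than at 0 h (FDR = 0.358), or 1.48 with the animal block (FDR = 0.0165, and 0.116 by the F test with the block). IL8 had a difference of -1.96 ± 0.89 against 8 h (FDR = 0.676), or -1.9 with the block (FDR = 5.84e-19, and 0.000882 by the F test). At 8 h the IL8 means were 89.3 ± 33.3 CPM in Holstein and 19.5 ± 14.9 CPM in Angus, beside 44.5 ± 24.9 and 38.0 ± 37.2 CPM at 2 h.

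The strongest group on the Angus side was the cell cycle. Of 110 tested genes of replication and mitosis 50 were lower in Holstein and none was higher, 103 had a negative log2 fold change and the median was -0.93. CENPA, the histone of the centromere, was at 12.1, 8.79, 13.9 and 6.46 CPM in Holstein, beside 45.7, 30.9, 18.0 and 57.9 CPM in the Angus cultures (-1.89 ± 0.36, FDR = 2.43e-05). TOP2A, the topoisomerase that untangles replicated DNA (chromosome 19, 41281047 to 41307328), was at 129, 88.3, 107 and 50.9 CPM in Holstein, beside 322, 253, 150 and 476 CPM in the Angus cultures (-1.68 ± 0.37, FDR = 0.000299). CCNB1, the mitotic cyclin, had a log2 fold change of -1.64 ± 0.36 (FDR = 0.00024), as had ASPM, a spindle pole protein. In each of these genes the groups stayed apart, Angus animal 3 was the lowest of its breed, and Angus animal 4 the highest.

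The called cell-cycle genes covered successive steps of division. Examples from replication were RRM2 (-1.07), MCM3 (-1.08) and TYMS (-1.02), and from mitosis CCNB2 (-1.42), CDK1 (-1.32) and PLK1 (-1.43). Groups did not overlap for 35 of the 50, beside 470 of all 612 called rows with a symbol (76.8%). Summed over the 110 genes, the level was 3459, 2785, 3208 and 2195 CPM in Holstein, beside 6117, 5543, 3449 and 7799 CPM in the Angus cultures, so that Angus animal 3 fell just below Holstein animal 1. Without Angus animal 3, 66 members were lower and 1 was higher. The deficit was present before LPS, with 54 of 112 genes lower in Holstein at 0 h (median -0.98), and at 8 h 12 of 111 were lower (median -0.74). No cell-cycle gene had a 2 h breed difference past the threshold against either hour. Against 0 h, the edgeR likelihood-ratio test gave 0 genes with an unadjusted P under 0.05 and the F test with the animal block gave 18. Against 8 h the counts were 2 and 54.

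**Figure D5:**
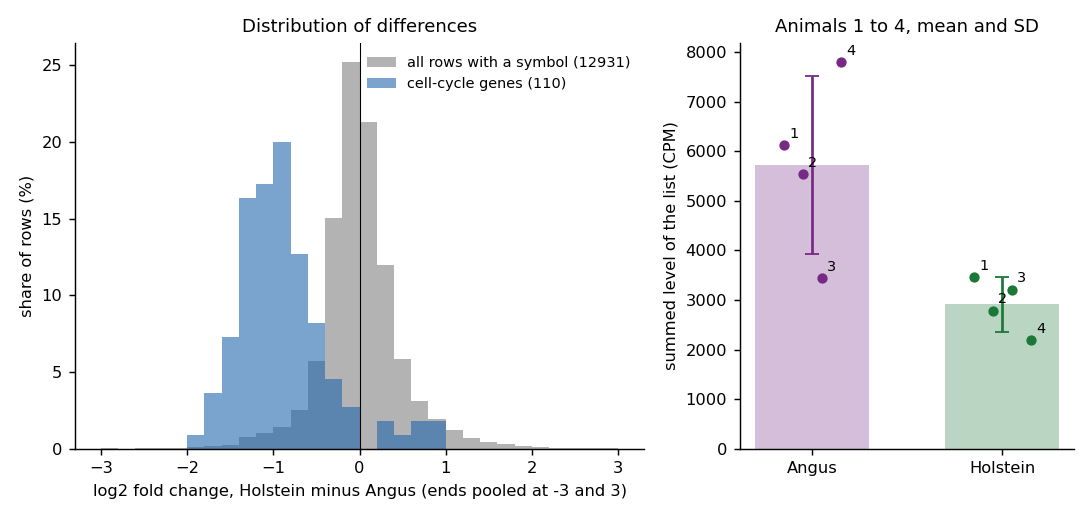
Left, the share of rows (%) by log2 fold change of Holstein over Angus at 2 h for 110 cell-cycle genes and for all 12931 tested rows with a symbol, which shows the list shifted to a median of -0.93. Right, the summed level of the 110 genes (CPM) in each animal, with the mean and SD, where Angus animal 3 lies beside Holstein animal 1.

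Genes of DNA methylation were read beside this list. UHRF1, which maintains DNA methylation at replication, was at 38.8, 33.4, 30.0 and 23.1 CPM in Holstein, beside 66.2, 57.4, 36.9 and 94.3 CPM in the Angus cultures (-1.02 ± 0.27, FDR = 0.00312), with Angus animal 3 below Holstein animal 1. The spans of UHRF1 and DNMT1 overlap another gene. DNMT1, the methyltransferase it recruits, had a log2 fold change of -0.54 ± 0.21 (FDR = 0.0537). TET3, which oxidizes methylcytosine, was higher in Holstein on 1 of its rows, at 2.89 to 4.34 CPM against 0.649 to 1.89 CPM (1.55 ± 0.33, FDR = 0.000171). These were the 2 called members among 13 tested DNA methylation genes.

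Notch pathway genes leaned to Holstein, with 5 of 18 higher and 1 lower and a summed level of 1098 to 1196 CPM against 778 to 922 CPM. The higher genes were the transcriptional targets HEYL, HES4 (2.04 ± 0.44, FDR = 0.000301), HEY1 (1.89 ± 0.47, FDR = 0.00184) and HES1, and the ligand JAG1 (1.06 ± 0.23, FDR = 0.000172). The F test did not call HEYL (FDR = 0.0509). HEY1 was at 6.46, 8.35, 4.41 and 5.67 CPM in Holstein, beside 0.737, 3.12, 2.14 and 0.711 CPM in the Angus cultures. JAG2, another ligand, was the lower gene (-1.96 ± 0.52, FDR = 0.00336), with Angus animal 3 inside the Holstein range. The other hours also had 3 Notch genes higher in Holstein, of 15 tested at 0 h and 16 at 8 h. JAG1 was higher at 0 h (1.09) and 8 h (1.21), as were HEYL (3.19 and 3.67) and HES4 (2.91 at both). HEY1 was not past the threshold at 0 h (0.88, FDR = 0.356) or 8 h (1.72, FDR = 0.0904).

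In the TGF-beta and BMP pathway 5 of 49 genes were higher and 1 was lower. TGFB2, a ligand (chromosome 16, 22495736 to 22588280), was at 66.8, 65.7, 64.8 and 72.1 CPM in Holstein, beside 16, 35.9, 26.7 and 13.0 CPM in the Angus cultures (1.56 ± 0.29, FDR = 9.66e-06). The Holstein cultures were close together and well above all Angus cultures. Before LPS, at 0 h, the log2 fold change of TGFB2 was 1.33. TGFB3 (1.37 ± 0.19, FDR = 1.54e-09), the BMP antagonist CHRD (1.43 ± 0.29, FDR = 8.13e-05), the signal transducer SMAD3 (1.03) and ID2 (1.05) were the other higher genes. TGFBR3, the betaglycan co-receptor, was lower (-1.05 ± 0.25, FDR = 0.000735). Among 37 Wnt genes DKK2, an inhibitor (-2.41 ± 0.41, FDR = 2.23e-06), and WNT5A (-1.38 ± 0.4, FDR = 0.00795) were lower and WNT10B was higher (1.02 ± 0.31, FDR = 0.0103). Groups overlapped for WNT5A and WNT10B.

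The called matrix genes were mostly on the Holstein side. COL11A1, a minor fibrillar collagen, was at 977, 1296, 1493 and 1487 CPM in Holstein, beside 185, 569, 559 and 170 CPM in the Angus cultures (1.82 ± 0.41, FDR = 0.00041). COL4A2, a basement membrane collagen, was at 669 ± 60.3 CPM in Holstein against 319 ± 48.6 CPM in Angus (SD) (1.07 ± 0.14, FDR = 2.56e-11), and COL8A1 was higher with overlap. With COL27A1 these made 3 higher and 1 lower of 24 collagens. Neither the F test (FDR = 0.0898) nor DESeq2 (FDR = 0.058) called COL8A1. FN1, fibronectin, was the most abundant of the genes called among matrix glycoproteins, with 15264 ± 2369 CPM in Holstein and 6767 ± 1497 CPM in Angus (1.17 ± 0.2, FDR = 5.99e-07). In that list 7 of 62 were higher and 2 were lower. LAMB3, a laminin chain that keratinocytes also make, was at 3.15 to 5.36 CPM in Holstein, beside 0.574 to 1.08 CPM in Angus (2.23 ± 0.27, FDR = 2.65e-13). MATN3 and ACAN, cartilage matrix genes, were higher with wide spread and overlap. The F test called neither MATN3 (FDR = 0.0777) nor ACAN (FDR = 0.0501). ITGA11, a collagen receptor of fibroblasts, was at 203 to 409 CPM in Holstein, beside 53.4 to 144 CPM in Angus (1.58 ± 0.32, FDR = 7.42e-05). It was the 1 called member of 30 leukocyte adhesion and integrin genes.

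Axon guidance genes, which also steer the movement of connective tissue cells, went in both directions, with 8 of 49 higher and 5 lower. SEMA5B was at 70.7, 61.0, 55.6 and 72.2 CPM in Holstein, beside 12.5, 26.6, 15.4 and 9.97 CPM in the Angus cultures (2.01 ± 0.28, FDR = 1.36e-09), and SEMA5A moved with it (1.83 ± 0.43, FDR = 0.000645). EPHB2, an ephrin receptor, and EFNB2, an ephrin ligand, were both lower, at -1.58 and -1.39, with overlap, and the F test called neither (FDR = 0.0532 and 0.0618).

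Circadian clock genes had 3 higher and 2 lower of 15, none with overlap. The repressor BHLHE40 was at 592, 560, 583 and 595 CPM in Holstein, beside 270, 346, 306 and 220 CPM in the Angus cultures (1.03 ± 0.15, FDR = 3.07e-09), and PER1 (1.01) and DBP (1.12 ± 0.27, FDR = 0.000853) were higher as well. NPAS2, an activator of the clock, was at 1.66 to 3.24 CPM in Holstein, beside 5.91 to 7.86 CPM in Angus (-1.42 ± 0.23, FDR = 1.77e-07), and BHLHE41 was lower too (-1.18 ± 0.2, FDR = 8.53e-07). The breed difference at 2 h against 0 h was past it for none of the 15 by the likelihood-ratio test, where 6 had an unadjusted P under 0.05, or by the F test with the animal block, where 11 had. Against 8 h, 2 were past it by the likelihood-ratio test and 3 by the F test with the block.

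Stress and metabolic genes went in both directions. Of 41 antioxidant genes 2 were higher and 3 lower (median -0.14), and the list summed to 2224 to 2584 CPM in Holstein, beside 2807 to 2858 CPM in Angus. Of 36 genes of glycolysis and hypoxia 1 was higher and 2 were lower (median -0.02), with sums of 6609 to 7275 CPM against 7504 to 8329 CPM. Neither sum overlapped between breeds, but nor did the sums of several other lists or the values of 26.0% of all tested rows with a symbol. The higher antioxidant genes were CYP1B1 and GPX3 (1.65 ± 0.53, FDR = 0.0167). Both had overlapping groups, and the F test called neither (FDR = 0.0651 for GPX3). The higher gene of glycolysis and hypoxia was ALDOC (1.36 ± 0.33, FDR = 0.000872), without overlap. HMOX1, heme oxygenase, was at 45.2, 33.8, 23.5 and 33.6 CPM in Holstein, beside 87.8, 87.2, 92.4 and 97.6 CPM in the Angus cultures (-1.42 ± 0.18, FDR = 1.62e-11). ADM, the vasodilator adrenomedullin, was at 8.39 to 18.6 CPM against 46.5 to 63.5 CPM (-2.25 ± 0.25, FDR = 1.53e-15), and HPGD, which degrades prostaglandins, was at 4.36 to 6.8 CPM against 11.2 to 32.9 CPM (-1.96 ± 0.37, FDR = 1.55e-05). PTGS1 and HPGD, both lower, were the 2 called members of 17 prostaglandin genes. CH25H, the cholesterol 25-hydroxylase, was lower (-1.38 ± 0.29, FDR = 8.94e-05) and ABCA1, the cholesterol exporter, was higher (2.04 ± 0.41, FDR = 6.35e-05), 1 of each among 34 sterol genes. IGFBP4 was lower (-1.15 ± 0.31, FDR = 0.00369) and IGFBP3 and IGFBP7 were higher, all binding proteins of insulin-like growth factors, and IGFBP3 was highest in Holstein animal 2 (252 CPM against 65.6 to 123 CPM in the other Holstein animals), without which its log2 fold change was 0.82 and not past the threshold. The span of IGFBP7 overlaps another gene.

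In 3 large families the called genes were few. None of 86 respiratory chain genes was past the threshold by the edgeR likelihood-ratio or F test, with 17 and 22 at an unadjusted P under 0.05. Of 243 zinc finger genes 62 had an unadjusted P under 0.05 and 2 were past the threshold, ZNF462 (1.17 ± 0.21, FDR = 2.32e-06) and ZNF280C. Of 173 ribosomal protein rows 158 had a negative log2 fold change (median -0.18), 56 had an unadjusted P under 0.05, none of them higher, and 20 were lower by FDR alone. The 1 row past the threshold was RPS27, and that call came from Angus animal 2 (69.2 CPM against 3.86 to 5.04 CPM in the other 7). Without it the log2 fold change was -0.09, and the symbol stands on more than 1 row.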

How the data were processed

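RNA from the 8 fibroblast cultures sampled at 2 h, and from the same animals at 0 and 8 h, was sequenced in 24 libraries. The authors removed reads of low quality or length, aligned the rest to the bovine genome with NextGENe 2.3.4 and deposited raw read counts for each annotated row, 1 table per sample. The deposited tables also give an average coverage per row, a signal that was used here only to ask how many bases stood behind each count. Reads were counted per row of the annotation, so genes that overlap or resemble each other may share reads, and whether strand was used is not given in the sources used here. The lowest and highest coverage per row, also given there, were not used.

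Counts were analysed with edgeR 4.0.16 in R 4.3.3. Rows with at least 1 CPM in 50% or more of the samples compared were kept, scaled by TMM and tested with the likelihood-ratio test of a generalized linear model of breed over the 8 samples, with Benjamini-Hochberg FDR. A row was past the threshold with FDR under 0.05, a fold change of at least 2 and an average above 1 CPM. Breed differences between hours were tested as the interaction of breed and hour. Replicates were cultures of separate animals, so in the comparison at 2 h p-values measure the spread between animals. The interaction without the animal block treated both samples of an animal as independent. Its SE and FDR thus ignore that pairing, which the animal block takes into account. Floors of 3 counts cover counting error only. The fits were tested on simulated counts before use.

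Named genes were the 15 of greatest change in each direction with 1 row per symbol and no overlap of groups, up to 4 called members of each list, 22 genes of the LPS response and of earlier interest whatever their values, and the 5 of greatest difference in each direction of each interaction. Other genes named were chosen after their values were seen. Some genes that met these rules are not reported here. The comparison, the lists and the named genes were chosen with earlier results of these data known. Alternatives covered normalization (RLE, upper quartile, total count), filters, the quasi-likelihood F test, DESeq2 1.42.0, all 24 samples in 1 fit, animal number as a block and leaving out each animal.

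The animal numbers pair samples across hours, as the labels give the same animal at each hour. Deviations from the group mean correlated at 0.6 to 0.8 between 2 h and 0 h of the same animal, and at -0.24 on average between different animals of a breed. Between 2 h and 8 h the values were 0.47 to 0.78 and -0.22.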

Additional observations from a re-analysis of the deposited data

Results flagged for a closer look

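Of 200 groups of 4 samples examined for a sample lying far from the other 3, 15 had one, where chance gives about 1 in 20, or 10.0. Angus animal 3 was such a sample for TNF (1.37 CPM, the nearest other at 0.188), CD14 (0.633 against 0.126) and CCL20 (6.09 against 0.401), and for the summed level of the chemokine receptors (228 against 202 CPM). Angus animal 1 stood apart for SLC32A1 (6.86 against 2.25 CPM) and ASIP (22.5 against 35.1 CPM). Holstein animal 1 did for KCNG1 (0.596 against 0.347 CPM) and for the sum of the DNA methylation genes (521 against 503 CPM), and Holstein animal 2 for CCL2 (291 against 138 CPM). Holstein animal 3 had low sums of the MAP kinases (1533 against 1633 CPM) and their phosphatases (525 against 626 CPM) and a high sum of the HOX genes (126 against 113 CPM). Angus animal 2 had a low sum of the MAP kinases (1583 against 1652 CPM). Angus animal 4 had high sums of the ribosomal proteins (39176 against 35488 CPM) and of the keratins, claudins and desmosomal genes (209 against 196 CPM).

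The breed difference at 2 h departed from that at 0 h, by the edgeR test of the interaction, towards Holstein for CTSW (2.6 on the log2 scale), DUSP5 (2.3), DUSP6 (2.24), EGR3 (1.9) and IER2 (1.9). It departed towards Angus for RASL11B (-1.62), MTSS1 (-1.51), ZNF280C (-1.48), N6AMT1 (-1.42) and MYCL1 (-1.33). Against 8 h the named departures were CTSW (2.3), DUSP5 (1.91), BBC3 (1.76), HDAC9 (1.74) and IER2 (1.7) towards Holstein, and SV2C (-2.16), SYNJ2 (-1.53), MTSS1 (-1.53), N6AMT1 (-1.45) and ZNF280C (-1.38) towards Angus. HDAC9, a histone deacetylase, was near level between breeds at 2 h, at 15.1 CPM in Holstein and 13.5 CPM in Angus, and at 2.25 and 6.69 CPM at 8 h.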

How the results depend on the processing

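The count of 898 rows between breeds at 2 h stayed within 1.5 times under other normalizations, filters, the F test (758), DESeq2 (910) and each animal left out in turn (616 to 1289, the latter without Angus animal 3), and was 1179 with the F test without Angus animal 3, a setting chosen after seeing the data. FDR alone, which drops the limits on fold and level, gave 4050 rows, 533 list members in place of 201, and 88 and 116 rows for the difference against 0 h and 8 h in place of 56 and 58. The interaction counts moved with the animal block to 126 against 0 h and 194 against 8 h, or 74 and 152 with the block and the F test, and the F test without the block gave 16 and 26. With an animal left out they ranged from 33 (without Angus animal 4) to 80 against 0 h, with 34 without Holstein animal 1, and from 39 to 90 (without Angus animal 3) against 8 h. Why they moved was not tested. The log2 fold change of IL8 turned from 0.23 to -0.06 without Angus animal 2, -0.06 without Angus animal 4 and -0.17 without Holstein animal 2, and was 1.16 without Angus animal 3. Animal numbers of the 2 breeds share only a number: with it as a block 935 rows were called at 2 h, and 0 samples correlated best with their own number in the other breed (-0.3 to 0.05). At 3 counts, levels under about 0.05 CPM cannot be measured.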

Other observations

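Some called rows that lay next to each other in the genome had the same direction. They were chosen after their values were seen, and the number to expect among the called rows was not computed. The sodium channel genes SCN9A and SCN1A, side by side on chromosome 2, were both lower in Holstein (log2 fold change -1.75 and -2.17). KDM6B, a histone demethylase induced by LPS, and TMEM88, 67 bases away on chromosome 19, were both higher (1.57 and 2.13). On chromosome 8, CTSL1, a lysosomal protease gene, and FBP1 were both lower (-1.92 and -3.3). Reads shared between such neighbours were not tested.

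An uncharacterized gene, LOC100848478 on chromosome 4, differed by 5.54 on the log2 scale at 2 h, with overlapping groups (80.4 ± 90.9 CPM in Holstein and 1.73 ± 0.198 CPM in Angus, SD, n = 4). The same gene was at -5.76 at 0 h and 5.94 at 8 h. It was chosen after its values were seen.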
